A study of Mus musculus and Rattus norvegicus with 36 samples.

Results

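Oligodendrocyte precursor cells (OPCs) of a conditional Baf155 knockout were compared with control OPCs from the mouse medial prefrontal cortex (mPFC), gene by gene. Of the 18464 genes with values in the table of acutely isolated cells, 13671 had a normalised read count of at least 10 in at least 3 of the 6 mPFC libraries, and these were tested. The third-highest of a gene's 6 values was 10.069 just inside that rule and 9.877 just outside it. The 6 libraries are 3 knockout libraries (Pdgfralpha-CreER;Baf155-flox/flox) and 3 control libraries (Baf155-flox/flox) out of 36 in the series. Both groups are homozygous for the floxed allele, and the controls lack Cre. Cells were untreated, isolated by immunopanning and lysed on the plate. Poly-A RNA was read as single reads of 50 bases on the DNBSEQ platform. The tissue label is mPFC, while the protocol speaks of dissected cortex. Age, strain, sex and the time since Cre induction are not given in the sources used here. CreER was driven by the promoter of Pdgfra, the OPC receptor for platelet-derived growth factor, so recombination is expected only in cells that express it. The effect of CreER itself and that of losing Baf155 cannot be told apart in this design. Nothing in the labels says that the 3 libraries of a group came from separate animals, so the p-values measure the spread between these samples.

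BAF complexes are ATP-driven chromatin remodelers of the SWI/SNF family that slide or evict nucleosomes and so set which enhancers and promoters are open. BAF155, the product of Smarcc1, is a scaffold around which the other subunits assemble. OPCs are dividing glial progenitors of the adult brain. They respond to growth factors and to neuronal transmitters, and those that leave the cell cycle pass through a premyelinating stage before they make myelin.

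Taking the step between the values of a library as 1 read, which no label states, the libraries held an estimated 19793366 to 20543922 reads each, and the 10 most abundant genes took 3.68% to 3.95% of the total. Pdgfra, the gene that marks OPCs, stood at 40377, 40262 and 45229 normalised reads in the knockout and at 35184, 36398 and 36174 in the control libraries. The 20 OPC markers summed to 242287 to 258137 in knockout and 264794 to 266623 in control libraries. Markers of other cells were also present. The 20 astrocyte markers summed to 50146 to 50897 in knockout and 40415 to 40793 in control libraries. The 17 microglia and macrophage markers summed to 2782 to 2872 and 3452 to 3644, and the 14 mural and fibroblast markers to 11833 to 13016 and 13525 to 14121. The mural list shares Cspg4 with the OPC markers, so its sum is not one of other cells alone. Of its 11 tested members 6 rose and 1, Cspg4, fell (median 0.83), where 24.6% of all genes rose and 23.7% fell. Against the controls labelled hippocampus 4 rose and 2 fell (median 0.13; 20.4% and 19.2% of all genes). Knockout library 3 stood apart from the other 2 (chi-square per degree of freedom 13.6 and 16.2 against it, 2.42 between the other 2). Without it 6907 genes passed, 3446 higher and 3461 lower, with 27 replication genes higher, 21 cholesterol synthesis genes lower and 13 OPC markers lower. Among the controls labelled hippocampus, library 3 stood apart as well (10.1 and 8.41 against it, 1.63 between the other 2). Some regional genes went against the labels, while the lists of regional genes as a whole did not settle the matter. Dlx1, a transcription factor of the ventral forebrain, stood at 150.5, 166.9 and 150.0 in knockout mPFC libraries, against 36.2, 21.2 and 30.3 in control mPFC libraries. In the hippocampus libraries of the same table the order was the opposite, with 33.5, 24.4 and 35.6 in knockout and 171.8, 192.3 and 175.8 in control. In Dlx1 the knockout mPFC libraries thus match the controls labelled hippocampus. Of the cortical genes 4 of 12 rose and 5 fell, and of the hippocampal genes 2 of 10 rose and 2 fell, where 24.6% of all genes rose and 23.7% fell. The 18 hippocampal genes summed to 1671 to 1813 in knockout mPFC and 2107 to 2142 in knockout hippocampus libraries, the order of the labels. In the controls they summed to 1920 to 1984 in mPFC and 1462 to 1677 in hippocampus libraries, the opposite order. Which labels are at odds was not determined. The main results below are therefore also given against the 3 control libraries labelled hippocampus. The Y-linked genes Ddx3y, Eif2s3y, Kdm5d and Uty summed to 1678, 1696 and 1968 in knockout mPFC libraries, against 516.5, 481.9 and 517.3 in control mPFC and 770.2, 847.3 and 937.0 in the controls labelled hippocampus. Their part in the results was not tested, and animal sex and genotype cannot be told apart here.

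**Figure D1:**
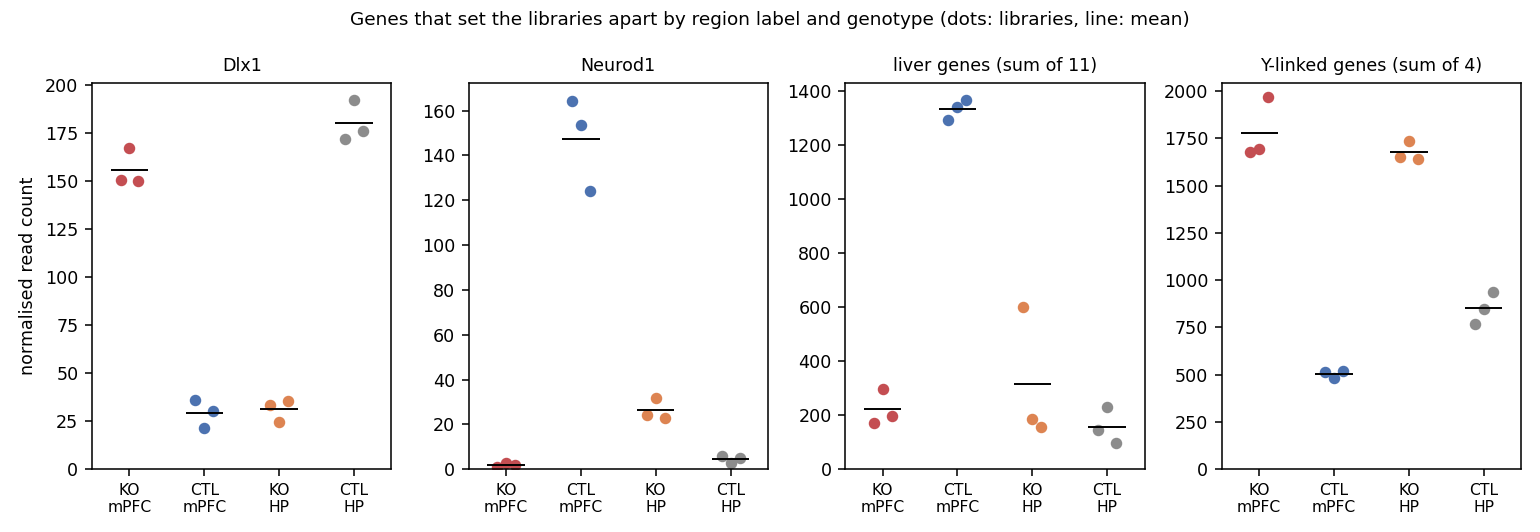
Normalised read counts per library of Dlx1, Neurod1, the sum of 11 liver genes and the sum of 4 Y-linked genes, in knockout (KO) and control (CTL) libraries labelled mPFC or hippocampus (HP); dots are libraries and lines are means of 3. Dlx1 sits between 150.0 and 192.3 in the knockout mPFC libraries and the controls labelled hippocampus, and at 36.2 or below in the other 6 libraries.

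Smarcc1 transcripts were lower in the knockout libraries but remained abundant (chromosome 9: 110117708 to 110240178, plus strand, GRCm38). They numbered 2378, 2368 and 2649 in knockout libraries, against 3814, 3911 and 3915 in mPFC controls, and the groups did not overlap. The fold change was −0.66 ± 0.05 on the log2 scale (SE; adjusted p = 6.505e-08, limma-trend with Benjamini-Hochberg adjustment over all 13671 genes), and −0.86 against the controls labelled hippocampus, which held 4514, 4419 and 4454. Reads of the floxed exons were not separated from the rest of the gene. Esr1, the gene of estrogen receptor alpha, was nearly exclusive to knockout libraries, with 590.1, 598.5 and 457.0 normalised reads, against 2.0 in each mPFC control and 1.0, 3.9 and 2.1 in the controls labelled hippocampus. As background, CreER is a fusion of Cre with the ligand-binding domain of an estrogen receptor, and reads of the transgene and of the endogenous gene (chromosome 10: 4611593 to 5005614, plus strand) cannot be told apart in a table of genes. Within 1 Mb of Smarcc1, 5 of 22 tested genes rose and 4 fell, where 24.6% of all tested genes rose and 23.7% fell. The only one to change at least 2-fold was Pth1r, the parathyroid hormone receptor gene (−1.69 ± 0.30), which is at −0.38 and does not pass against the controls labelled hippocampus. Near Pdgfra, beside the same shares of all genes, 3 of 10 rose and 3 fell, with the homeobox gene Gsx2 at 1.61 ± 0.13 (0.68 against the controls labelled hippocampus).

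Of the 13671 genes, 3363 rose (24.6%) and 3244 fell (23.7%) at an adjusted p under 0.05. A change of at least 2-fold was seen in 323 of the genes that rose (2.36% of all tested) and in 280 of those that fell (2.05%). Against the controls labelled hippocampus 5425 passed (39.7%), of which 2794 rose (20.4%) and 2631 fell (19.2%). Against both control groups 2091 genes rose (15.3%) and 1787 fell (13.1%), and 90 passed in opposite directions (0.658%). Changes of at least 2-fold in both comparisons were seen in 158 genes that rose (1.16%) and 74 that fell (0.541%). The knockout libraries are shared by the 2 comparisons, so these are not independent. The median log2 fold change over all genes was −0.02. With 48.3% of all genes called, the gene lists below are read against these shares. For every list they are 24.6% rising and 23.7% falling, or 20.4% and 19.2% against the controls labelled hippocampus.

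**Figure D2:**
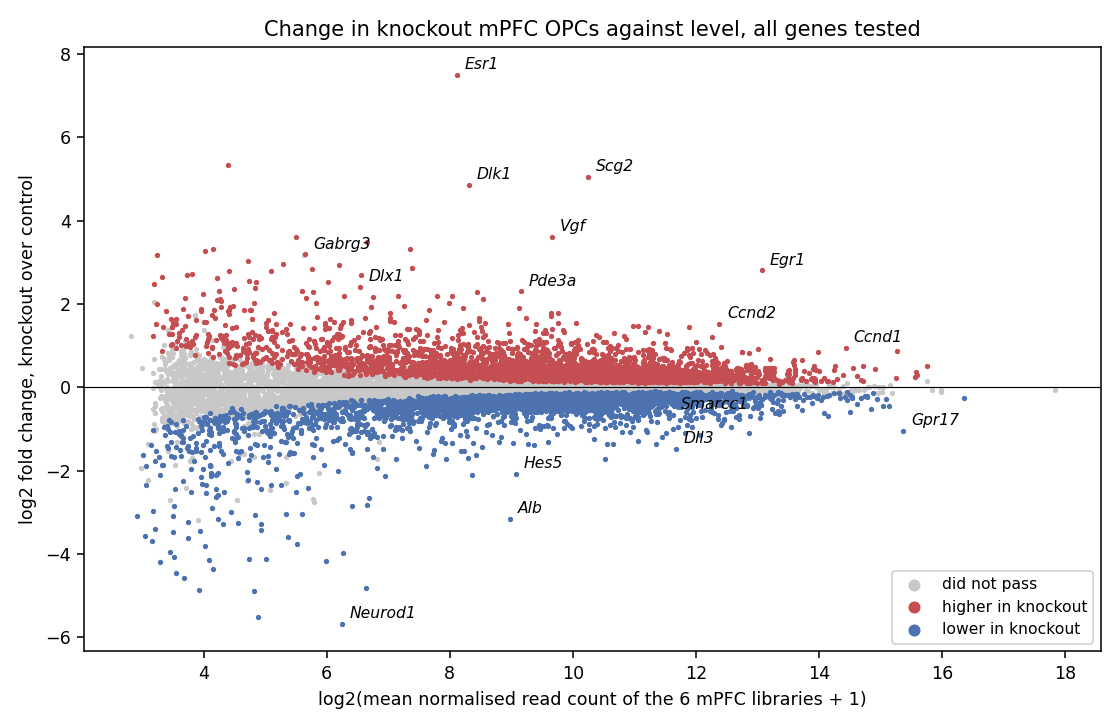
Log2 fold change of knockout over control mPFC libraries against the mean normalised read count of the 6 libraries on a log2 scale, 1 dot per gene; red genes were higher and blue genes lower in the knockout at an adjusted p under 0.05, and grey genes did not pass. Scg2 (5.06), Dlk1 (4.85) and Vgf (3.61) stand above the other labelled genes with read support in both groups, and the fold of Esr1 rests on a control level of 2.0 reads.

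Scg2 and Vgf, 2 genes of the dense-core vesicle pathway, were among the largest rises. Dense-core vesicles store peptides and growth factors for regulated release. Scg2 encodes secretogranin II, a granin that helps form these vesicles (chromosome 1: 79434669 to 79440120, minus strand). It stood at 2260, 2298 and 2534 in knockout libraries, against 67.5, 78.8 and 64.5 in mPFC controls and 77.0, 82.9 and 77.6 in the controls labelled hippocampus. All 3 knockout libraries were far above all 6 controls, and the fold change was 5.06 ± 0.08 (adjusted p = 3.237e-15). Vgf encodes a granin-like secreted precursor induced by neurotrophins. It was at 1757, 1528 and 1227 in knockout libraries, against 116.8, 125.3 and 120.0 in mPFC controls (3.61 ± 0.10; 4.20 against the controls labelled hippocampus). Syt4, a synaptotagmin of such vesicles, rose by 1.65 ± 0.11, and Ptprn, a vesicle membrane protein named among the largest rises and outside the list, by 1.53 ± 0.07. Other members fell. Pcsk2, the prohormone convertase that cuts peptide precursors, was at 208.5, 192.6 and 193.5 in knockout libraries, against 535.7, 522.4 and 559.7 in mPFC controls (−1.44 ± 0.07). Scg5, the chaperone of that convertase, fell by 0.58 on the log2 scale, and Chgb, another granin, by 0.41. Pam, which amidates peptides, rose by 0.18, but did not pass without control library 1 (0.16), control library 2 (0.18) or knockout library 1 (0.13), nor in a fit of the 6 mPFC libraries alone (0.18). In all, 4 of 13 tested members rose, 3 fell and 6 did not pass, where 24.6% of all genes rose and 23.7% fell. Against the controls labelled hippocampus 4 rose and 6 fell (20.4% and 19.2% of all genes). The same 4 and 3 were called against both control groups. The list median was −0.07, and −0.23 against the controls labelled hippocampus, so the large rises belong to single members and not to the list.

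Scg2 and Chgb, which moved in opposite directions, both carry the consensus of the cAMP response element, TGACGTCA, near the start of the gene, and the 30 bases around each match are shown for that reason. The search covered both strands (the motif reads the same on each) of RefSeq windows of GRCm38.p6 from 250 bases before to 50 after a gene's start, and capitals mark the match. The annotations differ in where these genes start. The match in Scg2 lies before the RefSeq start at 79440026 but inside the gene as GENCODE places it, 27 bases from its start at 79440120. That in Chgb lies before the RefSeq start at 132781642 and likewise inside the GENCODE gene, whose start is at 132781278. None of the 4 other motifs searched overlaps either match.
Scg2 (chr1:79440076-79440105, minus strand): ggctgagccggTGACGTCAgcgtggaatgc
Chgb (chr2:132781559-132781588, plus strand): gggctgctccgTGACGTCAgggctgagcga
The motif stood in 588 of 32851 windows (1.79%), in 377 of the 10806 tested genes that had a window (3.49%) and in 2 of 10 members of the list with one. A match describes letters only.

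The early response gene Egr1 rose most among those that follow growth factor and MAP kinase signaling. Egr1, a zinc finger transcription factor induced within minutes of stimulation, had 15888, 14439 and 14798 normalised reads in knockout libraries, against 2188, 2169 and 2105 in mPFC controls. Its fold change was 2.80 ± 0.04 (adjusted p = 3.237e-15), and it was 2.64 against the controls labelled hippocampus. Of the 6 Egr and Nab genes 4 rose, among them Egr2 (0.94) and Egr4 (1.42). Nab2, a corepressor that binds Egr proteins, was the only one to fall, at 1864, 1905 and 1653 in knockout against 3130, 3156 and 3133 in mPFC control libraries (−0.80 ± 0.06). In the AP-1 family, whose dimers bind promoters and enhancers after stimulation, 4 of 9 rose: Fos (1.31 ± 0.06), Fosl2 (1.57 ± 0.10), Junb (0.98) and Jun (0.42). Jund (−0.32) and Maff (−0.49) fell and the other 3 did not pass. The counts were 4 and 2 against both control groups, while the median was 0.10 against mPFC controls and −0.23 against the controls labelled hippocampus. Jund stood at −0.24 without control library 1 and at −0.15 without knockout library 3, and then did not pass. Against the controls labelled hippocampus, neither Jund (−0.27 and −0.26) nor Maff (−0.32 and −0.33) passed without library 1 or library 2 of those.

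The MAP kinase feedback list holds genes that dampen ERK signaling once it is on, and also output genes of the pathway such as Myc and Etv1. Its members rose in 14 of 20 cases, with 4 falling (2 without any 1 of the control libraries, knockout library 1 or knockout library 2). Against the controls labelled hippocampus 11 rose and 6 fell, and the median was 0.30 against mPFC controls and 0.36 against the others. Dusp6, the phosphatase of ERK, was at 2234, 2277 and 2432 in knockout libraries, against 1463, 1472 and 1418 in mPFC controls (0.67 ± 0.06). The Sprouty genes Spry1 (0.50), Spry2 (0.73) and Spry4 (0.58), inhibitors of receptor signaling, also rose, as did Phlda1 (0.94). Myc (−0.39), Etv1 (−0.24), Spred1 (−0.19) and Dusp8 (−0.21) fell, of which Etv1 and Spred1 lost the call in those left-out fits, at −0.18 to −0.27 for Etv1 and −0.12 to −0.20 for Spred1. Other early response genes did not move one way: 7 of 25 rose and 9 fell, where 24.6% of all genes rose and 23.7% fell. Ier2 (1.51), Ier3 (1.38) and Arc (1.30), a gene of synaptic plasticity, were up, while the stress sensors Gadd45b (−1.59) and Gadd45g (−0.81), the antiproliferative gene Btg2 (−0.59) and the nuclear receptor gene Nr4a3 (−0.89) were down. Arc is at 0.36 and Ier3 at 2.39 against the controls labelled hippocampus.

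**Figure D3:**
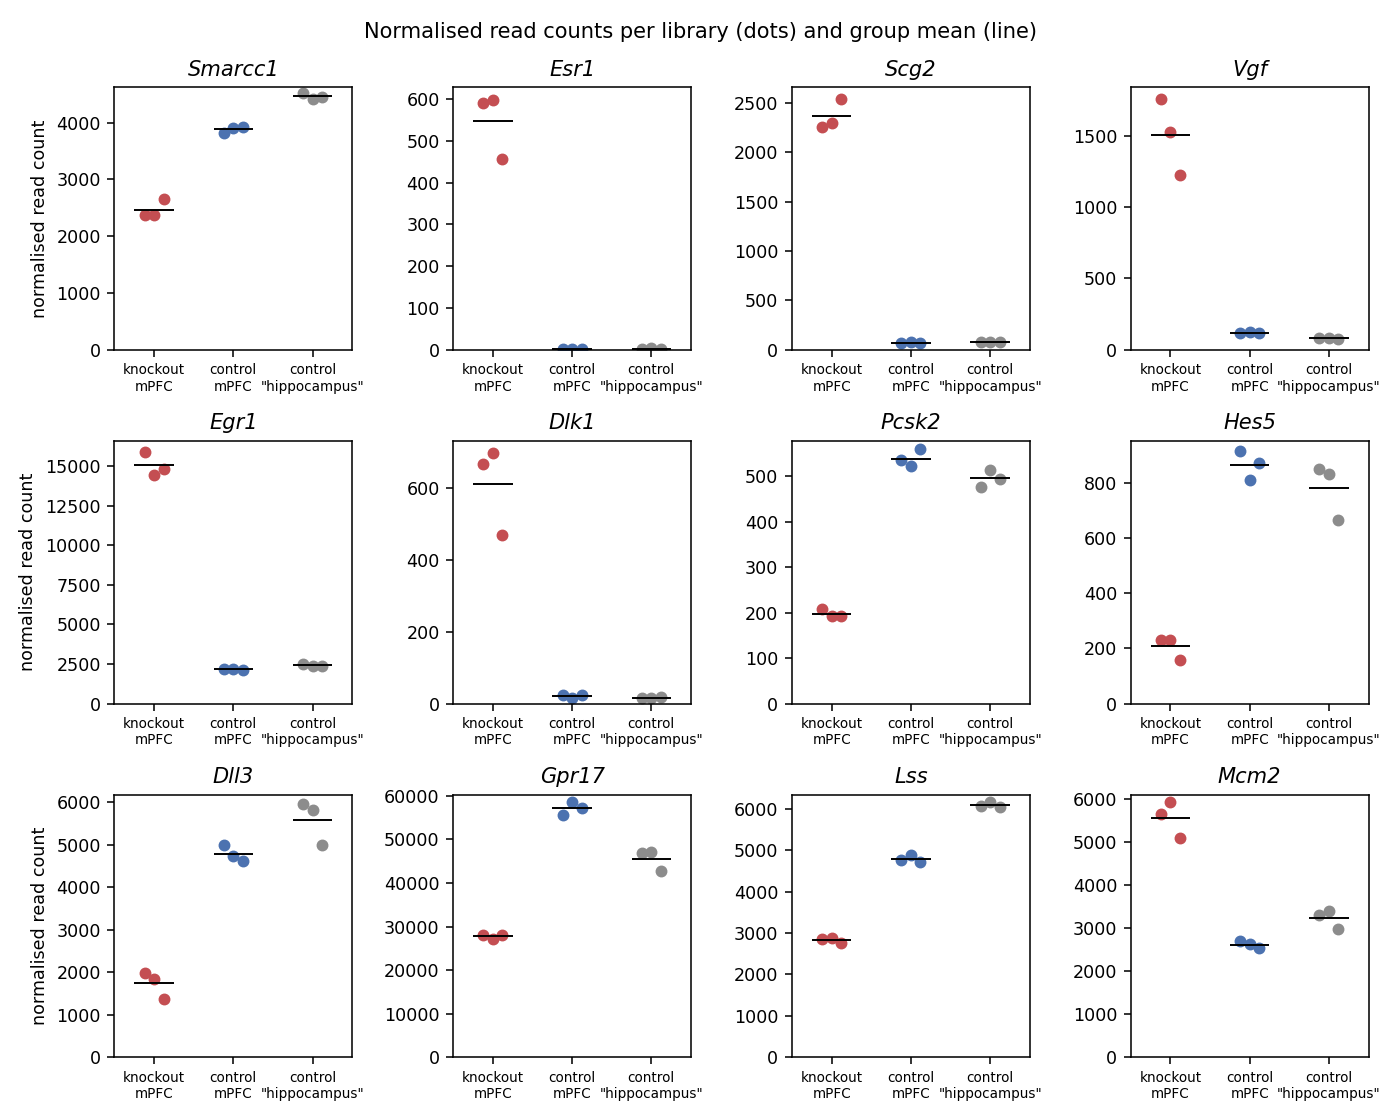
Normalised read counts of 12 genes in the 3 knockout mPFC libraries (red), the 3 control mPFC libraries (blue) and the 3 control libraries labelled hippocampus (grey); dots are libraries and lines are means, and every vertical axis starts at 0. In each panel the 3 knockout libraries lie apart from all 6 controls, from Smarcc1 at 2649 and below in knockout libraries to Scg2 at 2260 and above.

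Single genes of the Notch pathway changed, among ligands and among targets. Notch receptors are activated by ligands on neighbouring cells and switch on certain Hes and Hey genes, several of which keep progenitors undifferentiated. Hes5, the main such target in neural progenitors, was at 231.1, 232.1 and 159.1 in knockout libraries, against 914.3, 811.4 and 871.3 in mPFC controls (chromosome 4: 154960923 to 154962371, plus strand). The fold change was −2.08 ± 0.14 (adjusted p = 1.602e-08), and −1.92 against the controls labelled hippocampus. Nrarp (−1.16), a feedback inhibitor of the pathway, and the related factor genes Hey1 (−0.39) and Hes6 (−0.46) fell as well. Hes1 did not pass (−0.01), but rose against the controls labelled hippocampus (0.45). Among 19 targets and modulators 4 rose, namely the Hey gene Heyl, Lfng, Dtx1 and Dtx4, and 7 fell. Of all genes 24.6% rose and 23.7% fell. Against the controls labelled hippocampus 1 rose and 7 fell (20.4% and 19.2% of all genes). The same 7 fell against both control groups and no member rose against both.

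Of the ligands, Dll3 was at 1991, 1839 and 1378 in knockout libraries, against 4995, 4725 and 4625 in mPFC controls (−1.48 ± 0.10), and Dll1 at 1004, 1051 and 922.0 in knockout libraries, against 1948, 1959 and 1918 in mPFC controls (−0.97 ± 0.05). Jag1 fell too (−0.33). What these falls mean for receptor activation was not tested. Dlk1, a noncanonical ligand without the domain that activates receptors, rose instead, to 667.8, 698.3 and 470.1 in knockout libraries, against 23.2, 14.1 and 24.2 in mPFC controls and 14.8, 14.8 and 18.6 in the controls labelled hippocampus (4.85 ± 0.19; chromosome 12: 109452823 to 109463336, plus strand). The receptor gene Notch1 rose by 0.22, which it did not do against the controls labelled hippocampus (0.13). Of the 10 ligands and receptors tested 4 rose and 3 fell (24.6% and 23.7% of all genes). Against the controls labelled hippocampus 1 rose and 3 fell (20.4% and 19.2%).

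OPC markers fell more often than they rose. Of 20 members 13 fell, 3 rose and 4 did not pass, with a median of −0.23; against the controls labelled hippocampus 15 fell and 1 rose (−0.29). In pooled cells, fewer cells of a type and less RNA per cell cannot be told apart. The transcription factor gene Sox8 was at 5081, 4769 and 4860 in knockout libraries, against 8227, 8023 and 7877 in mPFC controls (−0.71 ± 0.04). Nkx2-2, a homeobox gene that promotes differentiation, fell as well (−0.96 ± 0.06). Olig1 (−0.45), Sox10 (−0.38) and Olig2 (−0.26), the lineage factors, fell less, and Olig2 did not pass against the controls labelled hippocampus (−0.11; −0.16 without library 3 of those, when it passed). C1ql1, a secreted complement-like protein of OPCs, fell by 1.36 ± 0.09 on the log2 scale. The 3 that rose were Xylt1 (0.92), which starts proteoglycan chains, Ptprz1 (0.30) and Pdgfra (0.22). Ptprz1 and Pdgfra did not pass against the controls labelled hippocampus (0.15 and 0.11), and Ptprz1 did without library 3 of those (0.22).

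Genes of committed, premyelinating cells split. Gpr17, a G protein-coupled receptor that marks this stage and holds maturation back, was at 28008, 27249 and 28126 in knockout libraries, against 55488, 58670 and 57304 in mPFC controls and 46860, 47116 and 42827 in the controls labelled hippocampus. No library of either control group overlapped the knockout, and the fold change was −1.04 ± 0.04 (adjusted p = 1.829e-10). Lims2 (−1.35 ± 0.09), an adaptor at integrin contacts, and the sialidase gene Neu4 (−0.73) also fell. Gpr17 lies within the bounds of Lims2 on the opposite strand, and strand handling is not given. Whether reads of Gpr17 were counted for Lims2 was not tested. Nfasc, which encodes the adhesion molecule neurofascin, rose by 0.91 ± 0.04, and by 0.29 against the controls labelled hippocampus. Over the list 5 of 15 rose and 6 fell, against 1 and 9 with the controls labelled hippocampus. Myelin genes had 5 rising and 5 falling of 13, with a median of 0.08, and 4 and 5 with a median of −0.13 against the controls labelled hippocampus. Mbp, myelin basic protein, was at 5576, 5808 and 5195 in knockout libraries, against 2045, 1977 and 2076 in mPFC controls and 3028, 3022 and 2920 in the controls labelled hippocampus (1.44 ± 0.04 and 0.88). Mag, an adhesion molecule of the inner myelin, rose by 1.67 ± 0.08, and by 0.58 against the controls labelled hippocampus. The gap junction gene Gjb1 (−0.81), the galactolipid enzyme gene Ugt8a (−0.48) and Cnp (−0.26) fell.

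Nearly every gene of cholesterol synthesis was lower. Myelin membrane is rich in cholesterol that oligodendrocyte lineage cells make themselves, and the genes of the path are switched on together by SREBP2 when sterols run low. Of 21 members 20 fell, none rose and 1 did not pass, against 23.7% of all genes falling; the median was −0.60, and −0.68 against the controls labelled hippocampus, where 19 fell. Lss, which closes lanosterol's rings, was at 2863, 2867 and 2762 in knockout libraries, against 4759, 4892 and 4722 in mPFC controls and 6072, 6167 and 6035 in the controls labelled hippocampus. Its fold change was −0.76 ± 0.04 (adjusted p = 1.013e-09). Fdft1, which makes squalene, fell by 0.62 on the log2 scale, Nsdhl by 0.67, Acat2 by 0.60 and Hmgcs1, which makes the mevalonate precursor HMG-CoA, by 0.60. Ebp, a sterol isomerase gene, fell by 0.28 but is at 0.11 and does not pass against the controls labelled hippocampus (it was named after its values were seen). Uptake and feedback genes followed in part, with 6 of 12 falling and 3 rising. Insig1, which holds SREBP in the endoplasmic reticulum and is itself its target, was at 3988, 4272 and 4233 in knockout libraries, against 7966, 8208 and 7993 in mPFC controls (−0.95 ± 0.04). The sterol carrier gene Stard4 (−0.63) fell as well. Srebf2, the gene of SREBP2 itself, did not pass (0.03). It is lower against the controls labelled hippocampus (−0.21). Of the 20 fatty acid synthesis genes 8 fell and 2 rose.

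A sterol regulatory element, TCACNCCAC read on both strands, stood in the window of 1 of the 16 cholesterol synthesis genes that had a window, Hmgcs1, against 144 of 10806 tested genes (1.33%). Capitals mark the match, which lies before the gene in RefSeq and GENCODE and which no other searched motif overlaps.
Hmgcs1 (chr13:119690101-119690350, plus strand): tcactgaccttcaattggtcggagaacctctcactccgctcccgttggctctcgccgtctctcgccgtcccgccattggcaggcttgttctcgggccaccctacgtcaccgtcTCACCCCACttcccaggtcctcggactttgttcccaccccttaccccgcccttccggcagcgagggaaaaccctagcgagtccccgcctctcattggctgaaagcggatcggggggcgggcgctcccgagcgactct

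DNA replication genes rose together. Of 28 members 27 rose and none fell, where 24.6% of all genes rose, with a median of 0.68; against the controls labelled hippocampus 28 of 28 rose (0.62). Cdc6, which loads the replicative helicase at origins, was at 1371, 1351 and 1320 in knockout libraries, against 649.4, 662.8 and 647.5 in mPFC controls (1.04 ± 0.05; adjusted p = 1.196e-09). Mcm2, a helicase subunit, was at 5673, 5940 and 5112 in knockout libraries, against 2699, 2642 and 2531 in mPFC controls (1.08 ± 0.06). Its partner Mcm4 (0.93) and the initiation factor gene Mcm10 (1.01) rose alike. The single member that did not pass was Gins4 (0.01). It was named after its value was seen.

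The E2F consensus, TTTNNCGC read on both strands, stood in the windows of 11 of the 23 replication genes that had one (47.8%), against 1032 of 10806 tested genes (9.55%). Mcm6 (0.69 ± 0.04), a helicase subunit gene, and Pola1 (1.04 ± 0.06), the gene of the catalytic subunit of DNA polymerase alpha, are shown as the 2 carriers with the smallest p among those whose 250 bases lie before the gene in both RefSeq and GENCODE. Capitals mark the matches, of which Mcm6 has 3 and the first 2 overlap each other.
Mcm6 (chr1:128359706-128359955, minus strand): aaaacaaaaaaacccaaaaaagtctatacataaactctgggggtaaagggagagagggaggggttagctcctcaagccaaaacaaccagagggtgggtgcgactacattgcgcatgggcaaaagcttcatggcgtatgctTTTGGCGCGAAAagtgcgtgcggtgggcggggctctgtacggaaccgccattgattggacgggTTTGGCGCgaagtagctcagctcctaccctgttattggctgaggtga
Pola1 (chrX:93632156-93632405, minus strand): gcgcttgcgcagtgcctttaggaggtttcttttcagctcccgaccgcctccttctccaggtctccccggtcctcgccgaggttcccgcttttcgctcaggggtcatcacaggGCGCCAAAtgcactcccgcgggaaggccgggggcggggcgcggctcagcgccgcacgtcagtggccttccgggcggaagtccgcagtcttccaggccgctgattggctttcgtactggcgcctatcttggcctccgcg
No match of another searched motif overlaps them.

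Genes of the later cell cycle had a lower median. Mitosis genes had 15 of 23 rising and 1, the cyclin gene Ccnb2 (−0.21; 0.20 against the controls labelled hippocampus), falling, with a median of 0.20 (Ccnb2 stood at −0.18 and did not pass without control library 2); against the controls labelled hippocampus 22 rose and none fell (0.35). Mki67, the proliferation antigen, was at 11019, 10388 and 13714 in knockout libraries, against 7110, 7502 and 7072 in mPFC controls (0.69 ± 0.08), and Top2a rose by 0.44. In the G1 list 17 of 25 rose and 3 fell. Ccnd2, a D-type cyclin that opens the way into S phase, was at 7575, 7456 and 8657 in knockout libraries, against 2685, 2822 and 2746 in mPFC controls (1.52 ± 0.05). Its relative Ccnd1 (0.94) and the activator gene E2f2 (0.99) rose too. Cell cycle inhibitors were divided. Cdkn1a, the p21 inhibitor and a p53 target, was at 2328, 2457 and 2178 in knockout libraries, against 963.6, 935.6 and 929.8 in mPFC controls (1.30 ± 0.05). Cdkn1c, the p57 inhibitor, fell by 1.08 on the log2 scale, or by 0.28 against the controls labelled hippocampus, where it did not pass without any 1 of those 3 libraries (−0.26 to −0.29). Cdkn1b, the p27 inhibitor, fell by 0.43 and did not pass there (−0.21; −0.27 without library 2 of those, when it passed). P53 targets rose in 14 of 25 cases and fell in 1, with Aen (0.90), Plk2 (0.81) and the death receptor gene Eda2r (0.80) rising and the mTOR inhibitor gene Ddit4 (−0.67) falling.

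**Figure D4:**
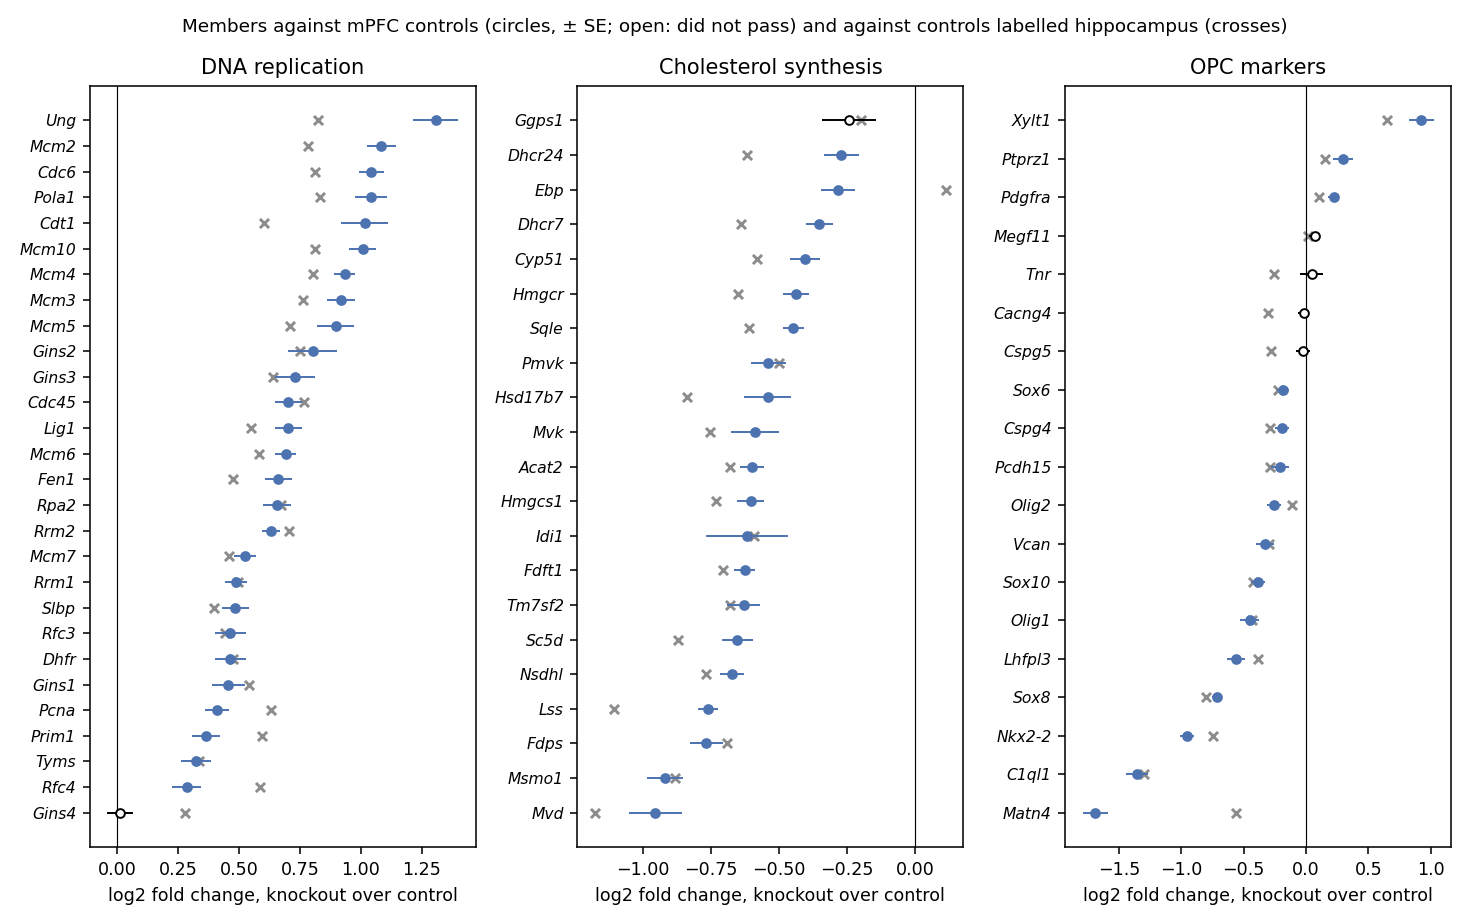
Log2 fold changes of the members of 3 lists, knockout over mPFC control (circles with standard errors; filled where the gene passed) and knockout over the controls labelled hippocampus (crosses). Of the replication genes 27 of 28 lie above 0 and passed, of the cholesterol synthesis genes 20 of 21 lie below 0 and passed, and of the OPC markers, 1 of which is not drawn, 13 of 20 fell.

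Chaperone and amino acid genes were higher as groups. Endoplasmic reticulum chaperones rose in 14 of 18 cases and fell in none (median 0.39; 13 and 0 against the controls labelled hippocampus). Hspa5, the chaperone BiP, was at 16187, 15760 and 17854 in knockout libraries, against 10785, 10752 and 10056 in mPFC controls (0.66 ± 0.05). Cytosolic and mitochondrial chaperones rose in 11 of 17 cases and fell in none, among them Hsph1 (0.77) and Hspa8 (0.50). Genes of the amino acid response rose in 13 of 23 cases, with the transporter genes Slc7a5 (0.91) and Slc7a1 (0.90) foremost and Psat1 (−0.25), of serine synthesis, among the 2 that fell (1 without any 1 of the control libraries, knockout library 1 or knockout library 3). Among the NRF2 antioxidant genes 11 of 18 rose and 3 fell, with Srxn1, a repair enzyme of peroxiredoxins, at 1.09 and Gstm1 at 0.79. Ribosomal protein genes depended on the control group: 34 of 76 fell and 2 rose against mPFC controls, while 23 rose and 1 fell against the controls labelled hippocampus.

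**Figure D5:**
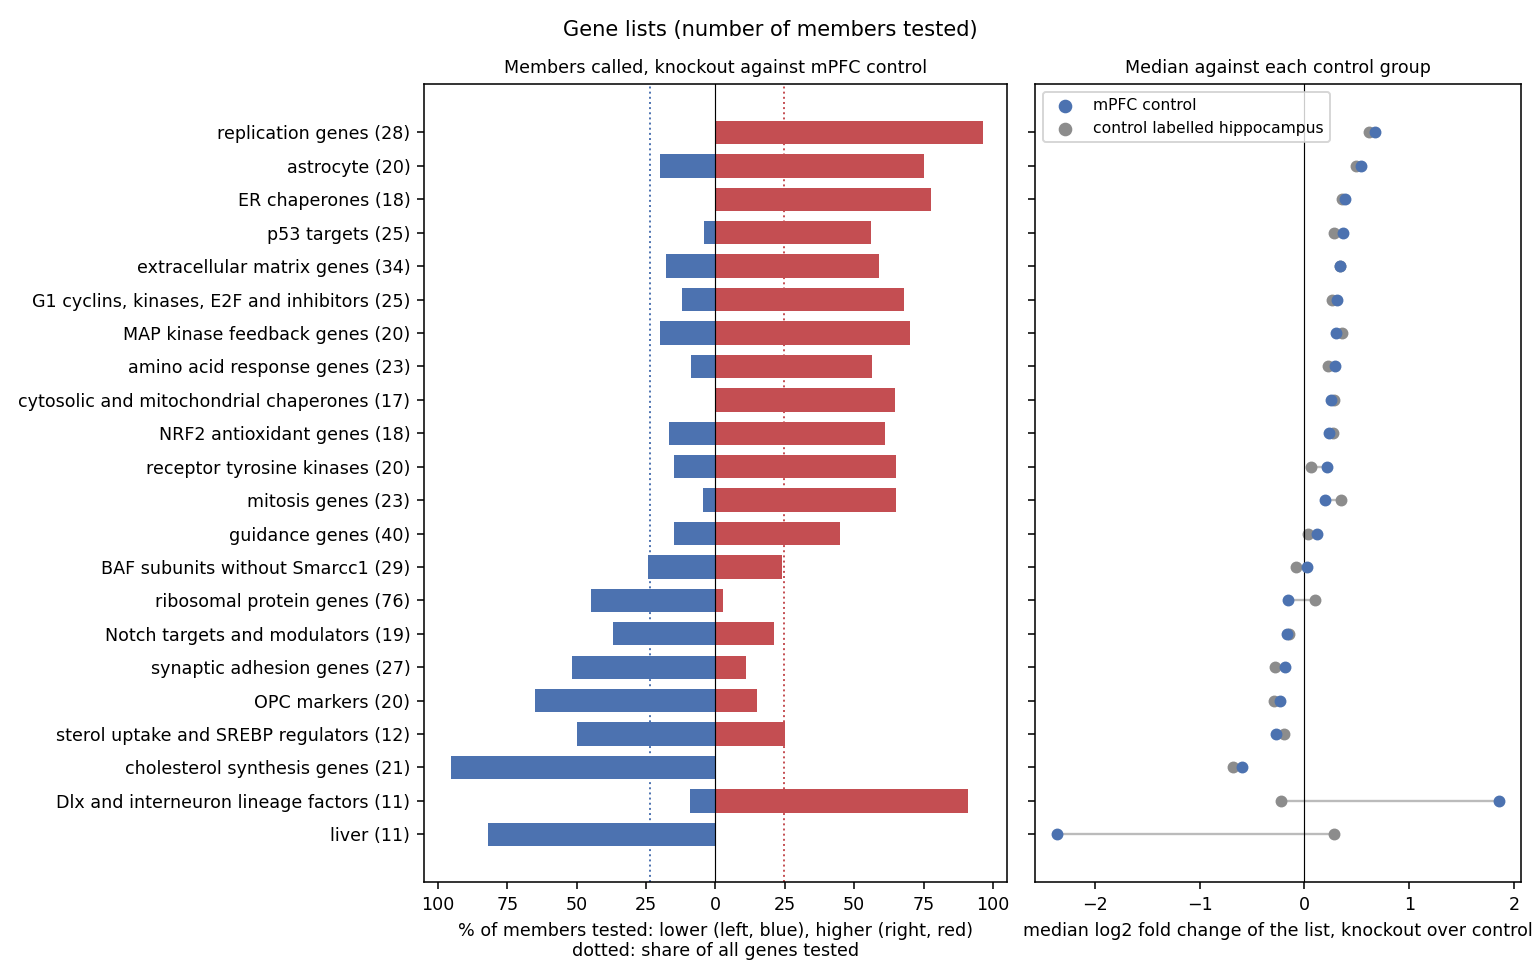
Left, share of the tested members of each list that were higher (red) or lower (blue) in knockout than in control mPFC libraries, with the number tested in brackets and the share of all genes as dotted lines (24.6% higher, 23.7% lower). Right, median log2 fold change of each list against mPFC controls (blue) and against controls labelled hippocampus (grey); of the lists drawn, the medians of the Dlx, liver, ribosomal and BAF lists change sign between the control groups, and over all 57 lists those of 17 do.

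Extracellular matrix genes rose in 20 of 34 cases and fell in 6, and in 18 and 9 against the controls labelled hippocampus. Sparc, a secreted collagen-binding protein, was at 3040, 3382 and 3023 in knockout libraries, against 1115, 1146 and 1151 in mPFC controls (1.47 ± 0.05). The protease gene Adamts1 (1.25) and the synaptogenic gene Sparcl1 (0.84) rose. Tnc, tenascin C, rose by 1.07 ± 0.04 against mPFC controls but stood at 0.07 and did not pass against the controls labelled hippocampus. Timp3, an inhibitor of such proteases (−0.91), and the collagen gene Col9a1 (−0.78) fell. Among structural genes, Vim, the intermediate filament vimentin, was at 53814, 53083 and 46327 in knockout libraries, against 28467, 28212 and 27106 in mPFC controls (0.87 ± 0.05). Nes, nestin, rose by 0.79 and the tubulin gene Tubb6 by 1.78, while Marcks, an actin regulator, fell by 0.44.

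Genes for contact with other cells had mixed directions. Synaptic adhesion genes fell in 14 of 27 cases and rose in 3, with a median of −0.18; against the controls labelled hippocampus 15 fell and 1 rose (−0.28). Lrrc4c, the netrin-G ligand gene, was at 729.8, 771.4 and 818.7 in knockout libraries, against 1451, 1449 and 1515 in mPFC controls (−0.93 ± 0.06). Ptprd (−0.72), Slitrk1 (−0.50) and Lrrtm4 (−0.58), which organise synapses, fell as well, while Ptprf rose by 0.68, 1 of the 3 rises (1 in all without control library 2). Axon guidance genes rose in 18 of 40 cases and fell in 6 against mPFC controls, and in 12 and 8 against the others; Sema6a (0.65) and Ephb1 (0.95) were up and Epha4 (−0.64) was down. Receptor tyrosine kinase genes rose in 13 of 20 cases and fell in 3, but in 4 and 4 against the controls labelled hippocampus. Egfr, the epidermal growth factor receptor gene, rose against both (1.13 and 0.63), and Fgfr2 rose against mPFC controls (1.08) but did not pass against the others (0.18). Gabrg3, a subunit of GABA-A receptors, was at 88.5, 86.9 and 91.2 in knockout libraries, against 11.1, 12.1 and 5.0 in mPFC controls (3.19 ± 0.25; 2.33 against the controls labelled hippocampus). Over the GABA receptor list 3 of 14 rose and 5 fell (24.6% and 23.7% of all genes). Against the controls labelled hippocampus 2 rose and 3 fell (20.4% and 19.2% of all genes). Of voltage-gated channel genes 10 of 30 rose and 9 fell (24.6% and 23.7% of all genes). The potassium channel genes Kcna1 (1.40) and Kcnd3 (0.73) were up and Kcnd2 (−0.73) was down.

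Wnt pathway genes rose in 7 of 14 cases and fell in 2. Nkd1, a feedback inhibitor of Wnt signaling, was at 1233, 1243 and 1055 in knockout libraries, against 501.4, 437.5 and 404.4 in mPFC controls (1.39 ± 0.08). Tcf7l2, a transcription factor of the pathway that OPCs use as they differentiate, fell by 0.87 ± 0.07. Rnf43, another feedback gene, fell by 1.05 against mPFC controls and stood at 0.73 against the controls labelled hippocampus, passing in opposite directions. In the BMP list 3 of 15 rose and 6 fell, with the inhibitor gene Id3 at −0.89 ± 0.08.

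Other BAF subunits showed no shared direction. Of 29 genes 7 rose and 7 fell, shares close to those of all genes, and none changed at least 2-fold; against the controls labelled hippocampus none rose and 8 fell. The ATPase gene Smarca4 (0.29) and the DNA-binding subunit gene Arid1a (0.25) rose, which neither did against the controls labelled hippocampus (0.05 and 0.00), and the alternative ATPase gene Smarca2 (−0.30) fell. Smarcc2, the paralog of Smarcc1, did not pass (−0.05 ± 0.04) against mPFC controls and stood at −0.15 against the controls labelled hippocampus, where it passed (it was named after its values were seen). The number falling was 2 without control library 1, 4 without control library 2 and 4 without knockout library 3. Polycomb genes, whose complexes oppose BAF at chromatin, had 6 of 24 rising and 7 falling, where 24.6% of all genes rose and 23.7% fell. Phf19 (0.66) was up and Jarid2 (−0.53) down. Autism risk genes had 15 rising and 11 falling of 47, beside the same shares of all genes. Against the controls labelled hippocampus 4 rose and 12 fell (20.4% and 19.2% of all genes). Reln, the gene of the matrix protein reelin, rose by 1.10 ± 0.10.

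Markers of other cells moved with genotype in places. Astrocyte genes rose in 15 of 20 cases and fell in 4 (2 without control library 3), and their sum was 50146 to 50897 in knockout libraries, against 40415 to 40793 in mPFC controls and 40333 to 40744 in the controls labelled hippocampus. Gfap, the astrocyte intermediate filament, was at 6089, 6142 and 5537 in knockout libraries, against 3282, 3426 and 3365 in mPFC controls and 1306, 1335 and 1168 in the controls labelled hippocampus (0.82 ± 0.05 and 2.22). Sox9 (−0.44), a glial transcription factor, fell, and several of these genes are also expressed by OPCs. Whether more astrocytes were present was not tested. P2ry12, a receptor of resting microglia, rose to 62.9, 62.2 and 77.0 in knockout libraries, against 11.1, 13.1 and 3.0 in mPFC controls (2.95 ± 0.37). Of the 17 microglia and macrophage markers 4 rose and 1, Lyz2 (−0.93), fell against mPFC controls, but 2 rose and 7 fell against the controls labelled hippocampus (medians −0.04 and −0.36), and their sum, given above, was lower in knockout libraries than in both control groups (3935 to 4060 in the controls labelled hippocampus). Liver genes fell in 9 of 11 cases against mPFC controls and changed in none against the controls labelled hippocampus; Alb, albumin, was at 71.8, 135.3 and 105.4 in knockout libraries, against 867.9, 903.3 and 945.0 in mPFC controls and 70.1, 116.4 and 27.9 in the controls labelled hippocampus. The number of liver genes falling was 5 without control library 3, a fit that no longer tests genes under 10 in every knockout library. Of the 11 Dlx and interneuron lineage genes 10 rose and 1 fell against mPFC controls, and 1 rose and 1 fell against the others. Neuron markers split, with 6 of 17 rising, Gad1 and Slc32a1 among them, and 8 falling (4 without any 1 of the control libraries). Those fits no longer test genes under 10 in every knockout library, such as Neurod1. A lower count there need not mean a weaker fall. Against the controls labelled hippocampus 2 rose and 6 fell. The 18 neuron markers summed to 3439 to 3699 in knockout libraries, 4332 to 4562 in mPFC controls and 3615 to 4071 in the controls labelled hippocampus. Of those that fell, Neurod1, a factor of excitatory neurons, was at 1.0, 3.0 and 2.0 in knockout libraries, against 164.1, 153.6 and 124.0 in mPFC controls and 5.9, 3.0 and 5.2 in the controls labelled hippocampus.

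Among the 500 most abundant genes, the largest changes passed against both control groups. All 8 of the largest rises and all 8 of the largest falls passed in the same direction against the controls labelled hippocampus. These genes were picked by size of change, and both comparisons share the knockout libraries, which favours such agreement. Beside genes already described, Dnmt1, the maintenance DNA methyltransferase, was at 9743, 9575 and 9168 in knockout libraries, against 5332, 5493 and 5254 in mPFC controls (0.82 ± 0.04). Map4, a microtubule-associated protein gene, rose by 0.84 and Mmp15, a membrane-bound metalloprotease gene, by 0.84. Ppp2r2b, a regulatory subunit gene of protein phosphatase 2A, was at 4503, 4739 and 5016 in knockout libraries, against 9983, 10197 and 10184 in mPFC controls (−1.09 ± 0.05). The amino acid transporter gene Slc38a2 (−0.75) and the transcription regulator gene Tsc22d1 (−0.69) fell as well. Outside these sets, Aldh1a3, an enzyme of retinoic acid synthesis, was at 77.7, 88.9 and 81.1 in knockout libraries and under 10 in every control library, against 8.1, 6.1 and 4.0 in mPFC controls and 4.9, 3.9 and 9.3 in the controls labelled hippocampus. Pde3a, which degrades cyclic AMP and cyclic GMP, was at 879.3, 905.7 and 1066 in knockout libraries, against 188.3, 198.0 and 188.6 in mPFC controls (2.30 ± 0.08). The imprinted gene Peg10 (1.47) and the nuclear receptor gene Rorb (1.79) rose. Tmem100, a membrane adaptor, fell by 1.72 against mPFC controls and by 0.94 against the controls labelled hippocampus. Among well-expressed genes without overlap between the groups, the 15 largest rises all passed in the same direction against both control groups. So did the 15 largest falls except Alb. Both sets were picked by size from the shared knockout libraries, with the same limit. Some less expressed genes fell further, such as Bhlhe22 (−4.17), which did not pass against the controls labelled hippocampus (−0.21). In 11 genes every knockout library was under 10 and every mPFC control at 40 or more. Of these, 0 were at 40 or more in every control labelled hippocampus. The reverse pattern was seen in 3 genes, of which 2 were also under 10 in every control labelled hippocampus.

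The knockout effect was set against that in the hippocampus for 7 genes, in 1 fit with an interaction term. They were Smarcc1 and the 3 largest rises and 3 largest falls among well-expressed genes without overlap between the groups. The fall of Smarcc1 was smaller in the mPFC, −0.66 against −1.51 in the hippocampus, a difference of 0.85 ± 0.07 (adjusted p = 9.42e-07), and the rise of Egr1 was larger (2.80 against 1.79, a difference of 1.01 ± 0.06). Hes5 fell in both (−2.08 and −1.73), with a difference of −0.35 ± 0.19 that did not pass. Over the 57 genes named by size, the difference passed for 44 (24.9% of all genes), and for 20 with the control groups exchanged between the regions (14.1% of all genes). These genes were chosen by the size of their mPFC change, which favours a difference, so the counts are not read against the shares of all genes.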

How the data were processed

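Poly-A RNA of immunopanned OPCs was read as single reads of 50 bases. The deposited table of acutely isolated cells holds the authors' normalised signal values per gene. In each library 100.0% of them were whole multiples of 1 value (tolerance 1e-06), as reads divided by 1 factor per library would be, and depths were computed from that value. No label states that factor, and no count test was run. The submitters' processing notes name HISAT, Bowtie2, DESeq2 and GRCm38.p6. Versions and strand handling are not given in the sources used here, so overlapping and antisense genes cannot be told apart. Values were taken as log2(value + 1) and fitted with limma-trend (limma 3.58.1, R 4.3.3) over the 12 acute libraries with a coefficient for each of the 4 groups, and p-values were adjusted over 13671 genes by the Benjamini-Hochberg method with a threshold of 0.05. Fold changes are on that log2 scale, which understates those of low genes. A permutation test of 3 libraries against 3 cannot give a p below 0.1. The steps were tested on simulated data. Python 3.11.15 was used for the summaries.

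Named genes are Smarcc1, the 15 largest rises and falls among well-expressed genes without overlap between the groups, the 8 largest of each among the 500 most abundant genes, genes under 10 in one group and at 40 or more in the other, up to 4 passing members of each gene list per direction by p (any member in lists of up to 20), and genes within 1 Mb of Smarcc1 or Pdgfra with at least a 2-fold change. Not every gene selected is printed, and some items are not reported here. The members and gene lists were chosen with earlier results of these data known. The comparison with both control groups together, the fits without each control labelled hippocampus and the Y-linked sums were added after seeing the data.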

Additional observations from a re-analysis of the deposited data

Results flagged for a closer look

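The knockout effect differed between mPFC and hippocampus for 6 of the 7 genes set against each other, by the interaction term of the fit across all genes, and for 3 (Smarcc1, Egr1 and Alb) with the control groups exchanged between the regions. Of the 7, 6 were chosen by the size of their mPFC change, which favours a difference. The mPFC effect minus the hippocampal effect was 0.85 ± 0.07 for Smarcc1 (0.45 with the control groups exchanged between the regions) and 1.01 ± 0.06 for Egr1 (0.69 with the exchange). It was 0.33 ± 0.11 for Scg2 (adjusted p = 0.0426, limma), −0.88 ± 0.14 for Vgf, −1.31 ± 0.10 for Tmem100 and −4.25 ± 0.70 for Alb (adjusted p = 0.000694, limma). With the controls exchanged these 4 change sign, to −0.017 for Scg2, 0.29 for Vgf, 0.25 for Tmem100 and 3.48 for Alb. The hippocampal effects were 4.73 for Scg2, 4.49 for Vgf, −0.41 for Tmem100 and 1.09 for Alb. Region and the mismatch of regional genes with the labels cannot be told apart in these values.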

How the results depend on the processing

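Over the alternatives run (TMM rescaling, quantile normalization, pseudocounts, filters, a robust fit, the 6 mPFC libraries alone and each library left out), the number of genes that passed stayed within 1.5 times 6607, and 3878 passed the same way against both control groups. Leaving out 1 library gave 5543 to 6907 genes, 2947 to 3446 higher and 2596 to 3461 lower, with Smarcc1 between −0.71 and −0.63, 27 replication genes higher, 20 to 21 cholesterol synthesis genes lower and 12 to 13 OPC markers lower. The filter was applied again to the libraries that remained, so some genes left the test in these fits. Against the controls labelled hippocampus, leaving out 1 of those 3 libraries (added after seeing the data) gave 4509 to 5403 genes against 5425, and 3457 to 3676 in place of 3878 that passed the same way against both groups. The call changed for 5, 6 and 6 of 160 named genes without library 1, 2 and 3 of those. Spred1 (−0.12) did not pass without library 3, nor Ccnb2 (0.18) without library 2. Dusp8 did not pass without any 1 of the 3 (−0.13 to −0.16). Jund and Maff did not pass without library 1 or 2, nor Neurod1 without library 1 (−0.78) or 3 (−0.86). Whether the replicate numbers pair the samples was not settled. Correlations of same-numbered deviations were 0.111, −0.054 and 0.068, and those of other numbers −0.118 to 0.041. With 3 libraries per group such values cannot decide it. With the replicate block 6371 genes passed, 3214 higher and 3157 lower. The regional difference passed for 20 of the 57 genes named by size with the control groups exchanged, against 44. With that exchange the differences were −0.017 for Scg2, 0.29 for Vgf, 3.48 for Alb and 0.25 for Tmem100. Against the controls labelled hippocampus the sign turned for Alb (0.71), Ccnb2 (0.20), Dlx1 (−0.21), Ebp (0.11), Hes1 (0.45), Rnf43 (0.73) and Srebf2 (−0.21); the cause was not tested. Without 1 library, genes that did not pass crossed 0: Gins4 ranged between −0.0189 and 0.0354, Hes1 between −0.0608 and 0.0242, and Srebf2 between −0.0135 and 0.0718. Ptprz1 did not pass under quantile normalization (0.11). Count tests (edgeR, DESeq2) on recovered reads were not run. The 3 libraries per group limit the precision, and low genes the folds.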
